A study of Arabidopsis thaliana with 12 samples.

Results

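The 4 RNA-seq libraries labelled wox4, out of 12 in the series, were compared between simulated shade and white light. They comprised 2 biological replicates of wox4 seedlings in white light enriched with far-red light (WL+FR, replicates 7 and 8) and 2 of wox4 seedlings in white light alone (WL, replicates 5 and 6). The other 8 libraries were Col-0 wild type and the REVOLUTA point mutant rev-5, each with 2 replicates in WL+FR and 2 in WL. All groups were whole Arabidopsis thaliana seedlings under continuous light, kept for 2 days in WL and then for 8 days in WL+FR or WL. According to the methods, wox4 is a T-DNA insertion line of the homeobox gene WOX4, a regulator of the stem cells of the vascular cambium. WOX4 was measured at 146 and 149 TPM (FPKM rescaled to the same total in every library) in wox4 WL+FR and at 113 and 112 TPM in wox4 WL. The 8 other libraries held between 1.58 and 3.93 TPM. The transcript therefore went against the label, in all 4 libraries, and the samples are called the libraries labelled wox4 throughout. The deposited values do not show which part of the gene the reads came from.

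Under vegetation, leaves absorb red light and let far-red light pass, and phytochrome B reads the ratio between them. Active phytochrome B removes the phytochrome-interacting factors (PIFs), basic helix-loop-helix proteins that bind G-box and PBE-box sequences. In shade the PIFs accumulate and switch on auxin synthesis genes, HD-ZIP II homeobox genes and inhibitors of their own action, and hypocotyls and petioles elongate.

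To show what lies upstream of genes that rose, the 250 bases before the annotated gene start are given for a photoreceptor, a homeobox gene, an auxin synthesis gene and a pair of auxin response genes. They were read 5′ to 3′ on the coding strand from TAIR10.1, and capitals mark a G-box (CACGTG), a PBE-box (CATGTG) or the auxin response element (TGTCTC), each searched on both strands. PHYB is at chr2:8139506-8139755 (plus strand), HAT2 at chr5:19218008-19218257 (minus), YUC8 at chr4:14192319-14192568 (plus), SAUR22 at chr5:5975088-5975337 (minus) and IAA19 at chr3:5263751-5264000 (plus).
PHYB: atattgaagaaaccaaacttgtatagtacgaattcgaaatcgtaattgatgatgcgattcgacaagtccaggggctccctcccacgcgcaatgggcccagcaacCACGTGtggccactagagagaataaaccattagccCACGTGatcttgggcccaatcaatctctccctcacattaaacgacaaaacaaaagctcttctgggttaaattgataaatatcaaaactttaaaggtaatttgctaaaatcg
HAT2: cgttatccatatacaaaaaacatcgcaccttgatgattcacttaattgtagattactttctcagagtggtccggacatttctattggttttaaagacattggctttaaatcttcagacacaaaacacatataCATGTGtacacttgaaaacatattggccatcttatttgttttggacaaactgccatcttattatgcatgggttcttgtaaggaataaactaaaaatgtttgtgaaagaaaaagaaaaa
YUC8: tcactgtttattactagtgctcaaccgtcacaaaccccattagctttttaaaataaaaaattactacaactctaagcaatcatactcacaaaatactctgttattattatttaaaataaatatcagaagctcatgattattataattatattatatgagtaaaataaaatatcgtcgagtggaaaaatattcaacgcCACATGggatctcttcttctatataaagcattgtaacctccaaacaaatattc
SAUR22: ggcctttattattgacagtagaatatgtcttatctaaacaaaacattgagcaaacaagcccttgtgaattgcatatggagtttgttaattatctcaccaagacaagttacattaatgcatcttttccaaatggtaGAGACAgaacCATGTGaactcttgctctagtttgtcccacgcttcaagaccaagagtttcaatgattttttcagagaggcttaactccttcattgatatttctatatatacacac
IAA19: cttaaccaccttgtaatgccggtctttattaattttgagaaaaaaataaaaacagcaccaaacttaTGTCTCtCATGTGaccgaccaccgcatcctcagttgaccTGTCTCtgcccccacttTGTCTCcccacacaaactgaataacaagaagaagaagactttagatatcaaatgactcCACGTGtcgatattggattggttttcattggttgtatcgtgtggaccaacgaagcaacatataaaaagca
The PHYB window held 2 G-boxes, 146 and 111 bases before the start, and the IAA19 window held 1 G-box, 1 PBE-box and 3 auxin response elements. Over all 18722 tested genes with such a window, 7.34% held a G-box. The share was 8.08% for the 260 genes that rose and 8.62% for the 58 genes that fell. A PBE-box was in 19.2% of the windows of genes that rose, in 15.5% of those of the 58 genes that fell and in 11.4% of all windows. The auxin response element was in 16.2%, 8.62% and 10.5% of the same windows. The letters CAATNATTG, bound by HD-Zip proteins, were in 0.385%, 1.72% and 1.08%. The windows of PIL1, HFR1 and ATHB2 held none of these letters. These shares are descriptions of sequence and were not tested.

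Among 18788 genes above 0 in all 12 libraries, 318 passed both thresholds, namely a log2 fold change beyond 1 in size and a limma p-value, adjusted over all genes, below 0.01. This was 1.69% of those tested. Of these, 260 rose in wox4 WL+FR (1.38%) and 58 fell (0.309%). The median log2 fold change was 1.25 for the genes that rose and -1.32 for those that fell, and 24 rose and 7 fell by more than 2. Fold changes here are WL+FR over WL on the log2(TPM + 1) scale, from 2 libraries against 2, and understate changes of low genes. Their standard error (SE) comes from the spread pooled over all 12 libraries and is the same in each genotype. The median over all tested genes was 0.13 on this scale. Quantile normalization moved it to -0.02 and called 158 genes higher and 74 lower, so that the higher share of calls was 68.1% against 81.8%. All 58 genes that fell were called there too, with 158 of the 260 that rose. With the adjusted p alone below 0.01, 9.59% of genes were higher and 2.2% lower, of which 1541 and 356 had a smaller fold change. The WL+FR and WL libraries did not overlap in any of the 318 genes, but the same was true of 60.6% of all tested genes.

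**Figure D1:**
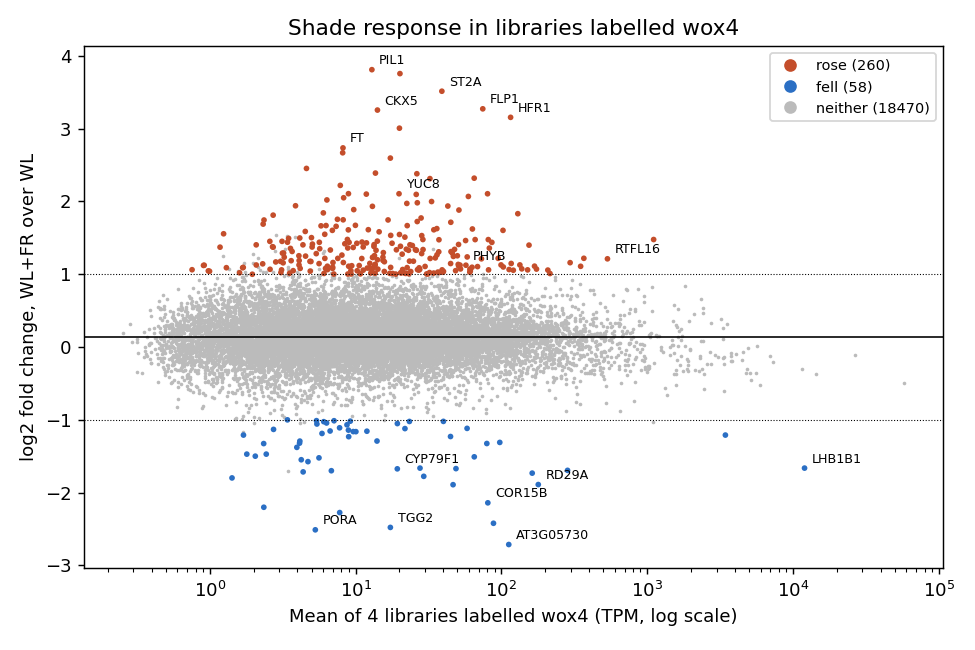
Log2 fold change, wox4 WL+FR over wox4 WL, of each of the 18788 tested genes (points) against its mean TPM over the 4 libraries labelled wox4 (log axis). The solid line is the median of all genes, and dotted lines mark 1 and -1. Coloured points are the 260 genes that rose and the 58 that fell, and most lie above the median of all genes, 0.13.

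Replicate libraries correlated at Pearson's r between 0.990 and 0.992 across genes in each of the 6 groups, and at 0.980 to 0.981 between wox4 WL+FR and wox4 WL. Depth was estimated at 10.3 to 11.4 M fragments per library from the bounds of weakly expressed genes. This lies well below the number of read pairs per sample given in the paper, and the reason was not tested. The 10 most abundant genes held 12.9% and 13.3% of the total in wox4 WL+FR, against 17.6% and 17.8% in wox4 WL. In whole seedlings, fewer cells of a type and less RNA per cell cannot be told apart.

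Several early shade genes rose. PIL1, a PIF-like helix-loop-helix protein, had 23.6 and 26.3 TPM in wox4 WL+FR, against 1.45 and 0.396 TPM in wox4 WL. Its log2 fold change was 3.81 ± 0.24 (SE; limma adjusted p = 5.41e-07), the largest of all genes tested. HFR1, which binds PIFs and limits the shade response, had 205 and 213 TPM against 24.3 and 20.9 TPM in wox4 WL (3.16 ± 0.07, limma adjusted p = 1.96e-10). The groups were far apart in both genes, although the WL level of PIL1 rested on few fragments. ATHB2, an HD-ZIP II homeobox gene and a classical shade marker, had 39.6 and 46.3 TPM against 9.31 and 10.9 TPM in wox4 WL (1.98 ± 0.12, limma adjusted p = 4.52e-07).

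Of 28 phytochrome and shade signalling genes tested, 5 rose and none fell, with a median of 0.29. The other 2 were PHYB and HAT2. PHYB had 76.6 and 81.0 TPM in wox4 WL+FR and 35.1 and 36.1 TPM in wox4 WL (1.12 ± 0.06, limma adjusted p = 1.63e-07). HAT2, another HD-ZIP II gene, had 41.3 TPM in both wox4 WL+FR libraries and 19.9 and 17.5 TPM in wox4 WL (1.11 ± 0.09, limma adjusted p = 3.06e-06). Both lost the call under quantile normalization, with 0.97 for PHYB and 0.95 for HAT2. The remaining phytochromes did not pass: PHYA had 100.4 and 111 TPM against 88.1 and 84.1 TPM in wox4 WL (0.29 ± 0.06), and PHYC, PHYD and PHYE had 0.06, 0.08 and 0.03, values that turned negative under quantile normalization. PIF5 had 75.3 and 72.2 TPM against 48.2 and 48.7 TPM in wox4 WL (0.60 ± 0.06), while PIF4 had 70.9 TPM in both wox4 WL+FR libraries against 63.5 and 63.0 TPM.

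**Figure D2:**
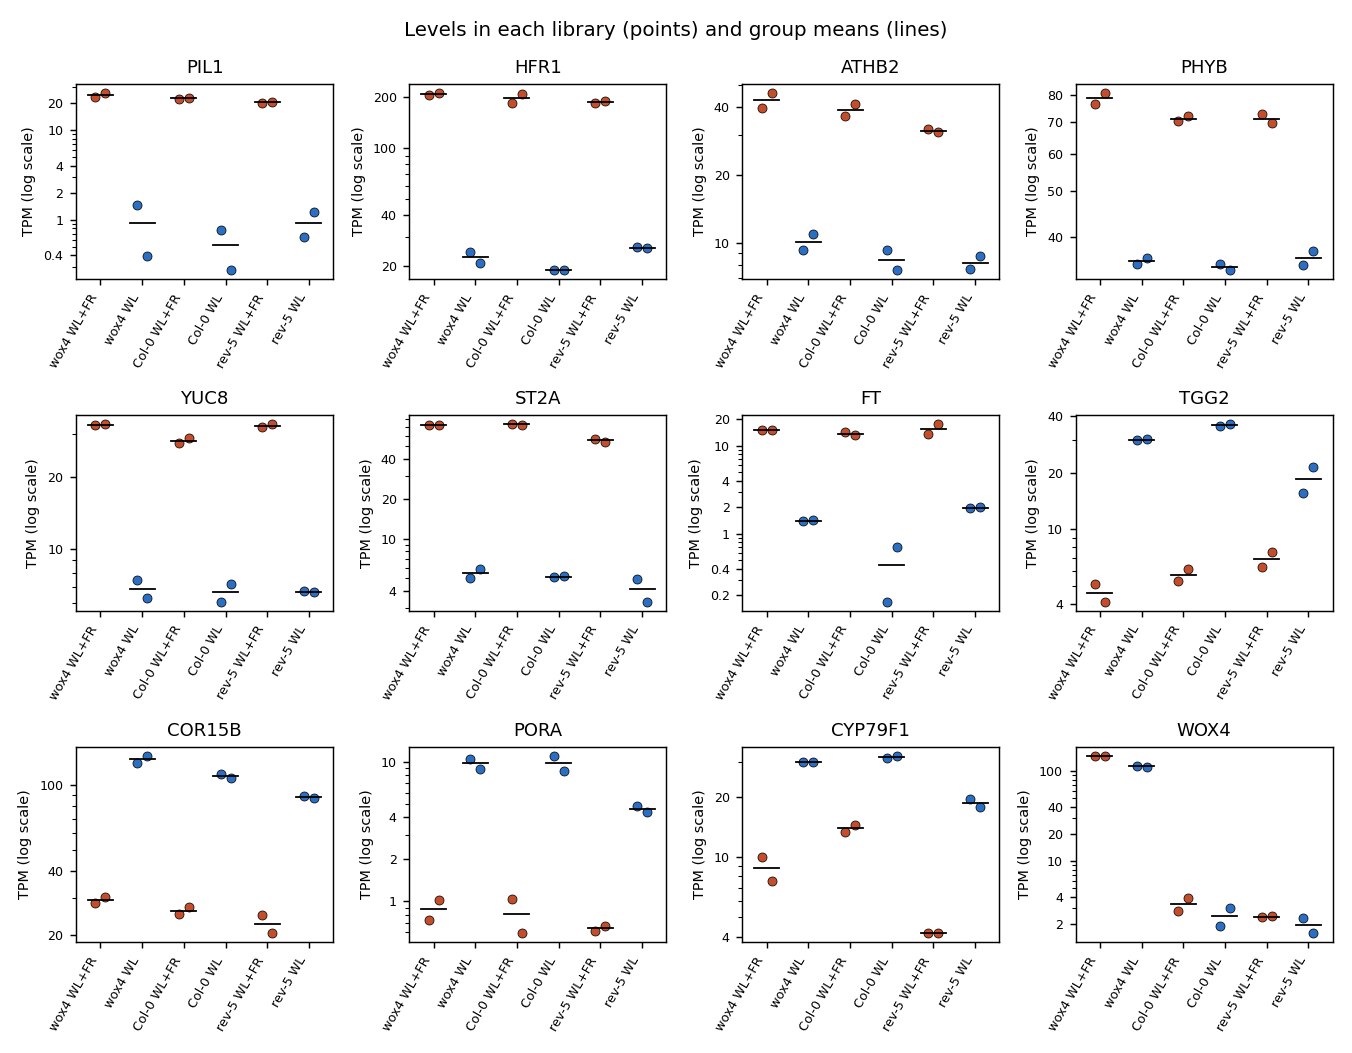
TPM (log axis) of 12 genes, 1 gene a panel, in each of the 12 libraries (points) with group means (lines), WL+FR left of WL and the libraries labelled wox4 first. HFR1 had 205 and 213 TPM in wox4 WL+FR against 24.3 and 20.9 TPM in wox4 WL, and COR15B 28.3 and 30.1 TPM against 127 and 138 TPM.

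Of 26 auxin synthesis and response genes tested 10 rose and none fell, with a median of 0.74. YUC8, a flavin monooxygenase of the last step of auxin synthesis, had 32.7 and 33.0 TPM in wox4 WL+FR, against 7.46 and 6.32 TPM in wox4 WL (2.11 ± 0.11, limma adjusted p = 7.04e-08). TAA1, the aminotransferase of the preceding step, had 5.49 and 3.68 TPM against 6.63 and 6.0 TPM and did not pass (-0.41 ± 0.23). Both WL+FR libraries lay below both WL libraries for TAA1, as for 13.1% of all tested genes. For YUC8 they lay above them, as for 47.4%.

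Most of the other auxin genes that rose were Aux/IAA repressors, which auxin itself induces. IAA29 had 52.3 and 55.0 TPM against 10.9 and 14.7 TPM in wox4 WL (2.0 ± 0.17, limma adjusted p = 6.53e-06). IAA19 had 34.1 and 35.4 TPM against 13.4 and 11.7 TPM (1.40 ± 0.11, limma adjusted p = 3.43e-06). IAA1, IAA6 and IAA2 rose by 1.67, 1.66 and 1.40. The auxin exporter PIN3, which moves auxin sideways in shaded hypocotyls, had 161 and 162 TPM in wox4 WL+FR and 72.6 and 72.1 TPM in wox4 WL (1.15 ± 0.05, limma adjusted p = 2.02e-08). IAA7 (1.01) lost the call without replicate 5 (0.96) or 8, and GH3.5 (1.03) without replicate 8 (0.98).

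Small auxin up RNAs (SAURs), short proteins that promote cell expansion, had the highest median of any list described, 0.95. Of 29 tested, 14 rose and none fell. SAUR22 had 109 and 109.7 TPM in wox4 WL+FR, against 19.4 and 22.9 TPM in wox4 WL (2.32 ± 0.09, limma adjusted p = 4.77e-09). SAUR10 had 15.4 and 11.7 TPM against 1.69 and 2.58 TPM (2.22 ± 0.30, limma adjusted p = 0.000234). Several lie side by side, with SAUR19, SAUR20 and AT5G18030 within chr5:5962773-5969190. SAUR19 to SAUR24 are near-identical, so that reads could be split between them and their separate values are uncertain. SAUR71 had 2.11 and 2.23 TPM against 4.89 and 3.62 TPM and did not pass (-0.72 ± 0.24).

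Of the other growth hormones, GA20OX1 and GA20OX2, oxidases of gibberellin synthesis, were the only 2 of 22 gibberellin genes to rise. GA20OX1 had 6.95 and 6.52 TPM in wox4 WL+FR against 1.22 and 0.824 TPM in wox4 WL (1.94 ± 0.23, limma adjusted p = 7.34e-05). GA20OX2 had 11.4 and 11.9 TPM against 2.52 and 3.58 TPM (1.66 ± 0.22, limma adjusted p = 0.000194). Of 10 brassinosteroid genes tested 1 rose, the synthesis gene BR6OX2, against 1.38% of all tested genes. BR6OX2 rose by 1.0, with the call lost without replicate 5 or 8 (0.88). DET2, of the same list, was not tested because it was listed at 0 in 8 of the 12 libraries. It had 61.5 and 39.6 TPM in wox4 WL+FR and 0 in both wox4 WL libraries. Among lists chosen after values were seen, 2 of 9 ACC synthases, which make the ethylene precursor, rose: ACS8 had 11 and 10.6 TPM against 2.02 and 1.81 TPM (2.02 ± 0.20), and ACS11 had 3.44 and 4.71 TPM against 0.396 and 0.748 TPM (1.69 ± 0.20). CKX5, which breaks down cytokinin, was 1 of 5 cytokinin oxidases to rise, with 24.1 and 28.7 TPM against 2.14 and 1.6 TPM (3.26 ± 0.18). CKX5 overlaps other annotated genes, and whether reads were assigned by strand is not given in the sources used here, so a share of its reads cannot be told apart from theirs.

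Cell wall genes held members that rose and 1 that fell. Expansins, which loosen walls, numbered 6 that rose and 1 that fell among 23 tested (median 0.36). ATEXPA1 had 407 and 413 TPM in wox4 WL+FR and 179.5 and 187 TPM in wox4 WL (1.16 ± 0.04, limma adjusted p = 3.7e-09). EXPA16 had 6.68 and 7.39 TPM against 16.5 and 17.3 TPM and fell by 1.16 on the log2 scale (SE 0.11, limma adjusted p = 1.64e-05). Of 28 xyloglucan endotransglucosylases 2 rose, XTH24 (1.06) and ATXTH17 (1.02). EXPA4, EXPA5, EXPA8, EXLB1 and both XTH genes passed no longer under quantile normalization, and EXPA5 and EXLB1 (both without replicate 5), EXPA17 (without replicate 6, 0.91) and ATXTH17 (without replicate 8) lost the call when a library was left out.

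**Figure D3:**
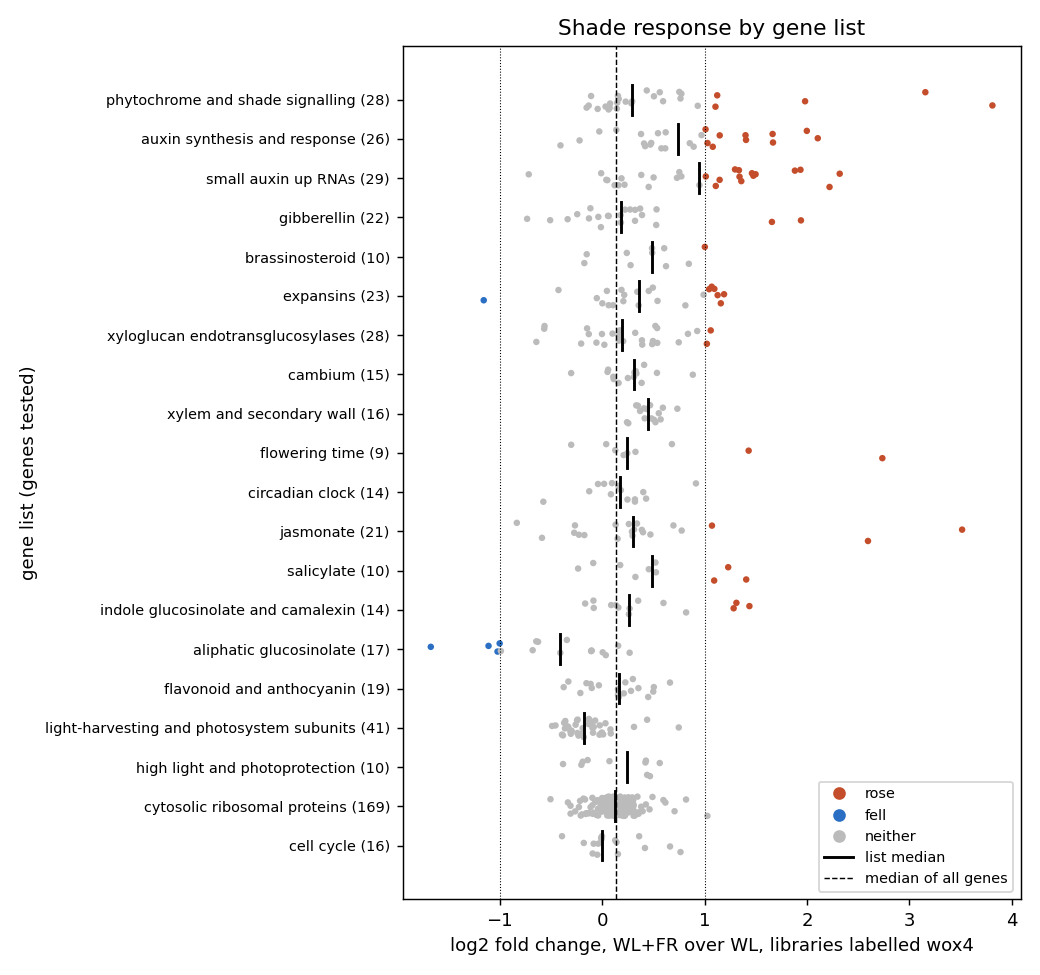
Log2 fold changes, wox4 WL+FR over wox4 WL, of the tested members (points) of 20 gene lists, with the median of each list (bar) and of all genes (dashed line, 0.13). Medians ran highest for the small auxin up RNAs (0.95) and auxin genes (0.74), and lay below 0 for aliphatic glucosinolate genes (-0.41) and for light-harvesting and photosystem subunits (-0.18).

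Defence hormone genes also held members that rose. Of 21 jasmonate genes 3 rose, led by ST2A, a sulfotransferase of hydroxylated jasmonate, with 72.8 and 72.7 TPM against 5.01 and 5.93 TPM in wox4 WL (3.52 ± 0.13, limma adjusted p = 4.91e-09). Its neighbour SOT14 also rose, by 1.25. VSP2, a vegetative storage protein, had 29.1 and 31.9 TPM against 4.08 and 4.32 TPM (2.6 ± 0.12, limma adjusted p = 3.33e-08). JAZ9, a jasmonate repressor, rose by 1.07 but lost the call without replicate 5 (0.66), 7 or 8. AOC2, an enzyme of jasmonate synthesis, had 82.1 and 82.4 TPM against 145 and 149.5 TPM (-0.83 ± 0.05).

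Of 14 indole glucosinolate and camalexin genes 3 rose: PAD3 (1.44), CYP71A12 (1.31) and CYP81F2 (1.28). PAD3, of camalexin synthesis, had 13.3 and 14.0 TPM in wox4 WL+FR and 4.94 and 3.91 TPM in wox4 WL (limma adjusted p = 2.69e-05). Of 10 salicylate genes 3 rose, including the transcription factor WRKY70, with 20.3 and 19.5 TPM against 6.38 and 7.43 TPM (1.41 ± 0.14, limma adjusted p = 1.81e-05), and CBP60G (1.23). Of 51 WRKY genes tested, WRKY70 alone rose (1.96%), near the 1.38% of all tested genes. A further 19 WRKY genes were not tested. Among them, WRKY53 (4.33 and 4.15 TPM in wox4 WL+FR) and WRKY40 (2.90 and 2.01 TPM) were listed at 0 in both wox4 WL libraries. FMO1 (1.09) lost the call without replicate 1, 2, 6, 7, 8, 9 or 10, with values down to 0.86.

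Of 9 flowering time genes tested 2 rose, FT and SOC1, and the median of the list was 0.25. FT, the mobile signal of flowering, had 15.1 and 14.9 TPM in wox4 WL+FR, against 1.39 and 1.41 TPM in wox4 WL (2.74 ± 0.18, limma adjusted p = 8.21e-07). SOC1, which acts downstream of FT, had 16.9 and 18.7 TPM against 5.8 and 6.14 TPM (1.43 ± 0.12, limma adjusted p = 5.3e-06). FLP1, annotated as a flowering-promoting factor-like protein, had 138 and 134 TPM against 13.3 and 13.1 TPM (3.27 ± 0.28). AT1G80130, a tetratricopeptide repeat protein, had 36.2 and 40.6 TPM against 1.52 and 2.35 TPM (3.76 ± 0.20), second to PIL1 in size. None of the 14 clock genes and none of the 16 cell cycle genes passed both thresholds, against 1.69% of all tested genes.

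Of 17 cold-regulated genes tested 7 fell and none rose, with a median of -0.51, in a list chosen after values were seen. RD29A had 74.6 and 76.7 TPM in wox4 WL+FR, against 281 and 285 TPM in wox4 WL (-1.89 ± 0.05, limma adjusted p = 2.59e-10). COR15B had 28.3 and 30.1 TPM against 127 and 138 TPM (-2.14 ± 0.09), and its neighbour and close paralog COR15A 76.3 and 73.3 TPM against 252 and 250.1 TPM (-1.73 ± 0.07). CBF3, a transcription factor that switches such genes on, had 3.22 and 3.19 TPM against 8.74 and 8.42 TPM (-1.19 ± 0.16, limma adjusted p = 0.00023). KIN2, another small cold-induced protein, had 133 and 134 TPM against 402 and 469.6 TPM (-1.7 ± 0.12), and the neighbours AT4G30650 and AT4G30660, annotated as low temperature and salt responsive proteins, fell by 2.42 and 1.33 on the log2 scale. COR15B, CBF3 and AT4G30660 overlap other annotated genes. CBF1 and CBF2 did not pass (-0.67 and -0.51).

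Aliphatic glucosinolate genes, of sulfur-rich defence compounds made from methionine, fell in 4 of 17 cases and rose in none, with a median of -0.41. CYP79F1, the entry enzyme, had 9.97 and 7.57 TPM in wox4 WL+FR against 29.9 and 30.0 TPM in wox4 WL (-1.67 ± 0.12, limma adjusted p = 1.07e-06). CYP79F2, its near-identical neighbour, had 7.63 and 9.13 TPM against 8.99 and 9.10 TPM (-0.10 ± 0.17), and reads could be split between them. MYB29, a regulator of the pathway, fell by 1.11, whereas the related MYB28 had 77.2 and 71.6 TPM against 60.4 and 62.7 TPM (0.27 ± 0.07). MAM1 (-1.02) lost the call without replicate 6 (-0.94) or 8, and FMOGSOX1 (-1.0) without replicate 5 or 7 (-0.83). TGG2, a myrosinase that breaks glucosinolates down, had 5.09 and 4.11 TPM against 29.9 and 30.3 TPM (-2.48 ± 0.15, limma adjusted p = 2.88e-07).

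Of 41 light-harvesting and photosystem genes none passed both thresholds, against 1.69% of all tested genes. With the adjusted p alone below 0.01, 19 were lower and 3 higher, against 2.2% and 9.59% of all tested genes. The median of the list was -0.18, and -0.08 after quantile normalization. CAB1 had 49692 and 46682 TPM against 67538 and 67664 TPM (-0.49 ± 0.03). It was the most abundant gene in all 12 libraries, so that quantile normalization gives it the same value in each by construction and tells nothing of its response. It is 1 of 5 near-identical LHCB1 genes, whose summed level was 96617 and 92535 TPM in wox4 WL+FR against 131541 and 130463 TPM in wox4 WL. LHB1B1, a further LHCB1 gene outside the list and chosen after its values were seen, had 5765 and 5766 TPM against 18357 and 18188 TPM and fell by 1.66 on the log2 scale, but reads could be split between the 5 copies. PORA, which reduces protochlorophyllide, had 0.731 and 1.03 TPM against 10.5 and 8.91 TPM (-2.51 ± 0.19, limma adjusted p = 1.76e-06), and was the only 1 of 11 chlorophyll synthesis genes to fall, in a list chosen after values were seen. AT3G05730, annotated as a defensin-like protein, had 29.1 and 28.9 TPM against 184 and 208 TPM (-2.71 ± 0.08), the largest fall of all genes tested, and overlaps another gene. ASN1, asparagine synthase, had 13 and 12.4 TPM against 44.1 and 48.0 TPM (-1.78 ± 0.11).

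Vascular genes were of interest because WOX4 acts in the cambium. None of 15 cambium genes and none of 16 xylem and secondary wall genes passed both thresholds in limma, against 1.69% of all tested genes. Values were above 0 in 14 of 15 cambium and 16 of 16 xylem genes, against 13452 of the 18788 genes tested. The medians were 0.31 for cambium and 0.45 for xylem genes, against 0.13 for all genes. Under quantile normalization 10 cambium and 16 xylem genes were above 0, against 8854 of all tested genes. Whether either list differed from all genes as a set was not tested. WOX4 itself had a log2 fold change of 0.39 ± 0.17 (limma adjusted p = 0.142). WOX14, its close relative, had 4.92 and 6.52 TPM in wox4 WL+FR and 3.14 and 2.15 TPM in wox4 WL (0.89 ± 0.19, limma adjusted p = 0.00555). PXY, the receptor upstream of WOX4, had 31.2 and 28.7 TPM against 24.8 and 23.0 TPM (0.32 ± 0.09), and REV had 7.82 and 7.31 TPM against 7.33 and 6.56 TPM. At an adjusted p under 0.01 alone, 2 of 15 cambium and 5 of 16 xylem genes were higher, against 9.59% of all tested genes. TED7, of tracheary element differentiation, had 60.7 and 51.9 TPM against 30.6 and 36.3 TPM (0.73 ± 0.19, limma adjusted p = 0.0169). In Col-0 the same gene had 60.8 and 39.2 TPM in WL+FR against 13.1 and 18.1 TPM in WL (1.6 ± 0.19), and the difference of the responses was -0.87 ± 0.27 (limma adjusted p = 0.496). The rev-5 response of TED7 was 0.65 ± 0.19, and the difference from rev-5 was 0.09 ± 0.27.

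No marker of mesophyll, epidermis, root hair, endodermis, phloem or guard cell passed both thresholds, against 1.69% of all tested genes. The summed level of 3 endodermis markers was 159 and 167 TPM in wox4 WL+FR against 96.1 and 91.6 TPM in wox4 WL, and that of 5 mesophyll markers 63640 and 60398 TPM against 81383 and 81720 TPM. Most of the mesophyll sum was CAB1 alone, with 49692 and 46682 TPM in wox4 WL+FR against 67538 and 67664 TPM in wox4 WL. Of the 5 mesophyll markers, 2 had log2 fold changes above 0 and 3 below. Phloem markers summed to 205 and 217 TPM against 165 TPM in both wox4 WL libraries, and epidermis markers to 609.5 and 617 TPM against 650.2 and 652 TPM. Although the epidermis sum was lower, 2 of its 3 markers had log2 fold changes above 0 and 1 below. CASP1, an endodermis marker, had 96.2 and 104 TPM against 51.8 and 47.6 TPM and passed the p threshold (limma adjusted p = 7.98e-05) but just missed that of fold change (0.9984 ± 0.12). CASP5 (1.26) and PER64 (1.09), 2 further endodermis genes outside the marker list that were chosen after their values were seen, rose, and CASP5 lost the call without replicate 5 or 7 (1.01). The part of these shifts in the results above was not tested.

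**Figure D4:**
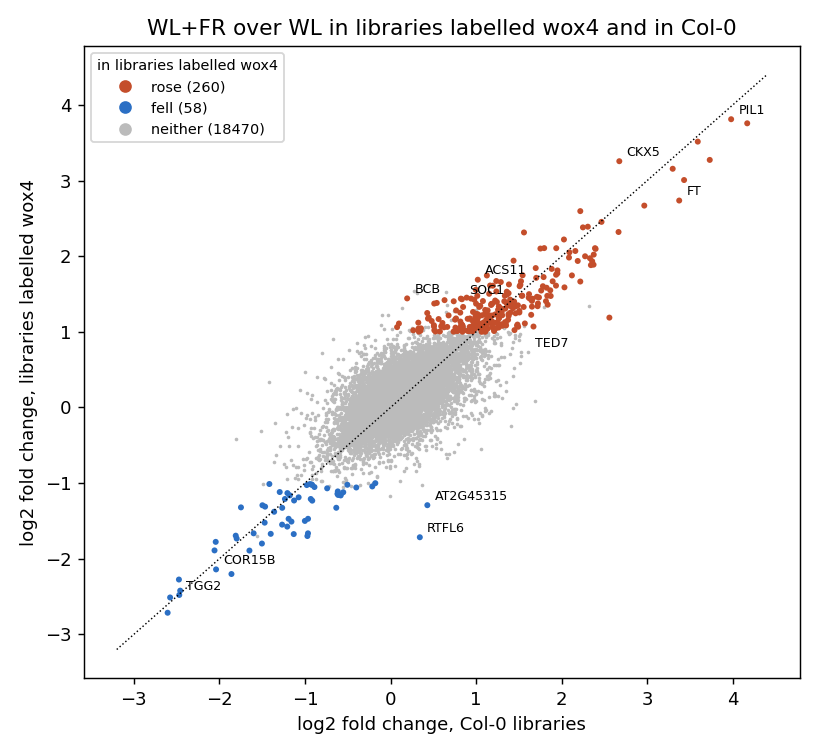
Log2 fold change, WL+FR over WL, of each tested gene in the libraries labelled wox4 (vertical) against Col-0 (horizontal), which share no library. The dotted line marks equal values. Of the 260 genes that rose in the libraries labelled wox4, all had a value above 0 in Col-0, and 178 were also called there.

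The response was next compared with that of the other genotypes, which share no library with it. In Col-0, 354 genes passed both thresholds (1.88%), 295 higher (1.57%) and 59 lower (0.314%), and in rev-5 208 did (1.11%), 165 of them higher (0.878%). Of the 260 genes that rose in the libraries labelled wox4, 178 also rose in Col-0, which is 68.5% of the first list and 60.3% of the 295 in Col-0. Of the 58 that fell, 33 fell in Col-0, which is 56.9% of the first list and 55.9% of the 59 in Col-0. With rev-5, 117 genes that rose were shared, 45.0% of the 260 and 70.9% of the 165 in rev-5. Fold changes in the libraries labelled wox4 and in Col-0 correlated at Pearson's r of 0.712 and Spearman's rho of 0.601 across the 18788 genes, which are not independent of one another.

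No gene passed both thresholds for a difference between the wox4 and Col-0 responses in limma, with 1338 genes (7.12%) at an unadjusted p under 0.05. In voom 1 gene passed (0.00532%), AT2G45315, with 1328 (7.07%) at an unadjusted p under 0.05. In limma this gene had 5.90 and 9.78 TPM in wox4 WL+FR against 22.4 and 18.0 TPM in wox4 WL (-1.29 ± 0.18), a Col-0 response of 0.43 and a difference of -1.72 ± 0.25 (adjusted p = 0.0413). Its fall in the libraries labelled wox4 lost the call without replicate 7 (-0.97). It overlaps AT2G45310 (GAE4), which had 15.5 and 14.2 TPM in wox4 WL+FR against 5.05 and 3.58 TPM in wox4 WL, was listed at 0 in both Col-0 WL+FR libraries against 4.72 and 2.21 TPM in Col-0 WL, and was listed at 0 in all 4 rev-5 libraries. The values of this pair moved in opposite directions in the libraries labelled wox4, and reads of one cannot be told apart from those of the other where strand was not used. RTFL6, a small peptide gene chosen after values were seen, had 1.85 and 1.18 TPM against 6.35 and 8.12 TPM (-1.72 ± 0.18), a Col-0 response of 0.34 and a difference of -2.06 ± 0.25 (limma adjusted p = 0.0375). RTFL6 also fell in rev-5 (-1.45 ± 0.18), and the difference from rev-5 was -0.26 ± 0.25 (limma adjusted p = 0.882). Its lowest value in the libraries labelled wox4 rested on an estimated 4.4 fragments. An absence of calls does not show that the responses were alike: for ATHB2 the difference was -0.10 ± 0.18 and for FT -0.64 ± 0.26.

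**Figure D5:**
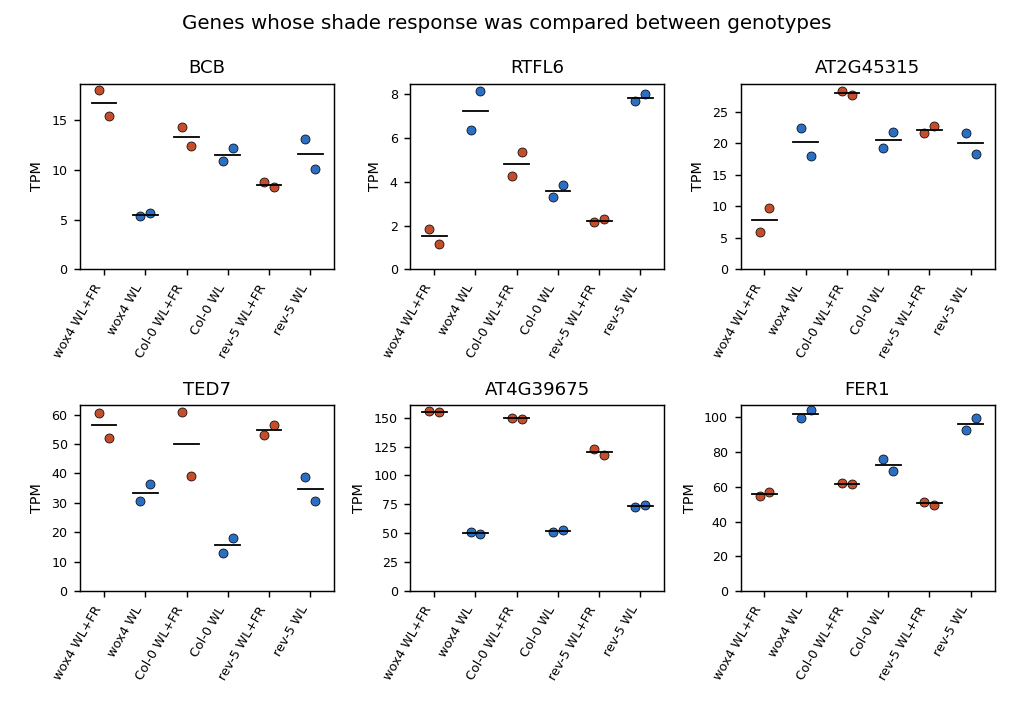
TPM (axis from 0) of 6 genes, 1 gene a panel, in each of the 12 libraries (points) with group means (lines), for genes whose responses were set against the other genotypes, with WL+FR left of WL and the libraries labelled wox4 first. BCB had 18.0 and 15.4 TPM in wox4 WL+FR against 5.31 and 5.67 TPM in wox4 WL.

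Against rev-5, the response of 1 gene (0.00532%) differed past both thresholds in limma, and voom called 3 (0.016%), BCB, IRT1 and AT2G45315. BCB, a blue copper binding protein, had 18.0 and 15.4 TPM in wox4 WL+FR and 5.31 and 5.67 TPM in wox4 WL (1.44 ± 0.14), with a rev-5 response of -0.39 and a Col-0 response of 0.19. The difference from rev-5 was 1.83 ± 0.20 (limma adjusted p = 0.00722), and that from Col-0 was 1.25 ± 0.20 (limma adjusted p = 0.078). The call against rev-5 was lost in 11 of the 12 fits that left out 1 library, where the difference was 1.66 to 1.94, and kept without replicate 10 (2.01). In WL, BCB averaged 5.49 TPM in the libraries labelled wox4, against 11.5 TPM in Col-0 and 11.5 TPM in rev-5. AT4G39675 had a smaller difference from rev-5, 0.90 ± 0.07 (limma adjusted p = 0.000409), with 155 TPM in both wox4 WL+FR libraries and 51.1 and 49.6 TPM in wox4 WL. Its rev-5 response was 0.701 and its Col-0 response 1.51, and the difference from Col-0 was 0.09 ± 0.07 (limma adjusted p = 0.832). IRT1 responded by 0.16 ± 0.16 in the libraries labelled wox4, by 0.65 in Col-0 and by -1.72 in rev-5. Both AT4G39675 and IRT1 were picked for a difference from rev-5, so that their nearness to Col-0 follows largely from that choice. RTFL6, picked for a difference from Col-0, lay nearer to rev-5 instead (-1.72, against -1.45 in rev-5 and 0.34 in Col-0).

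ROTUNDIFOLIA-like peptides, small regulators of organ shape, were a list chosen after values were seen, in which 4 of 17 rose and 1, RTFL6, fell. RTFL18 had 15.2 and 14.4 TPM in wox4 WL+FR against 1.73 and 1.27 TPM in wox4 WL (2.67 ± 0.2), and RTFL16 had 747 TPM in both wox4 WL+FR libraries against 331 and 313 TPM (1.21 ± 0.05). AT4G31970, a cytochrome P450 that the study names, had 3.4 and 3.8 TPM against 3.98 and 3.5 TPM (-0.04 ± 0.16), while its Col-0 response was 1.1 and the difference was -1.15 ± 0.22 (limma adjusted p = 0.228). In rev-5 the response of AT4G31970 was -0.24 ± 0.16.

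Other lists held few or no genes past both thresholds. Of 169 cytosolic ribosomal protein genes none passed, with a median of 0.12 that was -0.01 under quantile normalization. None of 34 heat shock, 19 flavonoid, 10 high light, 12 phosphate and nitrogen or 15 iron genes tested passed. Of all tested genes 1.69% passed, so that few or no calls are to be expected in lists of this size. PAP17, of the phosphate and nitrogen list, was not tested because of values listed at 0 and is described at the end. EXL4, induced when sugar is short, rose by 1.21 and was, with ASN1, 1 of 2 among 14 sugar starvation genes. In lists chosen after values were seen, 2 of 8 low sulfur genes, LSU1 (-1.12) and LSU3 (-1.07), and 1 of 7 stomatal lineage genes, EPF2 (-1.52), fell. LSU3 and EPF2 each lost the call in all 4 fits that left out 1 library labelled wox4, with values from -1.14 to -0.99 for LSU3 and from -1.76 to -1.29 for EPF2, and LSU1 lost it without replicate 6 (-0.96).

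Genes that rose or fell sat next to each other in 20 runs of neighbouring genes called in the same direction, holding 36 genes that rose and 11 that fell. They included SAUR68, SAUR66 and SAUR67 (chr1:10319732-10323239), COR15B and COR15A (chr2:17708593-17712330), SOT14 and ST2A (chr5:2171367-2176446) and IAA2 and IAA7 (chr3:8180646-8197161). SAUR68 lost the call without replicate 8 and SAUR67 without replicate 6. Of the 318 genes, 53 overlapped another gene of the tables. The share of all tested genes that overlap another, and the number of neighbour runs to be expected among 318 genes, were not counted. None of the 22 mitochondrial and 43 chloroplast genes tested passed both thresholds in limma, against 1.69% of all tested genes.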

How the data were processed

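The deposited tables hold FPKM per gene for 12 libraries with lower and upper bounds, made by the authors. The submitters' processing notes name FastQC, Bowtie2 and Cufflinks, while the methods of the paper name HISAT2 and TAIR10. The authors tested counts, not used here, so FPKM were rescaled to TPM per library and tested as log2(TPM + 1). Genes above 0 in all 12 libraries and averaging 0.5 TPM or more were kept (18788 of 32822). limma 3.58.1 (R 4.3.3, eBayes with trend) was fitted to all 12 libraries in 6 groups, with Benjamini-Hochberg adjustment over all genes, and calls were made past 1 in absolute log2 fold change with adjusted p below 0.01. Python 3.11.15, pandas 2.3.3, numpy 2.4.6 and matplotlib 3.10.9 were used. Start and end were the same in TAIR10.1 for 32520 of 32537 genes, which allowed windows of 250 bases to be read from it.

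Depth was estimated from the bounds of 5978 genes with 1 to 5 FPKM, where counting error dominates, and fragments for voom were FPKM times transcript length times depth. The bounds of abundant genes also hold other variance and were not used for this. In the main fit, p-values and SEs rest on the spread between biological replicates, 2 per group, pooled over all 6 groups. limma also draws this spread toward a trend with expression level, so it is not that of the compared groups alone. The fit was tested on simulated data.

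Members and lists were chosen with earlier results of these data known. Genes were named by rule: WOX4, the 12 largest changes in each direction, up to 6 passing members of each list (or the largest where none passed), all members of the shade and cambium lists, and genes past both thresholds for a difference. The text gives the leading ones, and others, such as those of the added lists, were chosen after their values were seen. Alternatives were another pseudocount, other filters, FPKM in place of TPM, quantile normalization, limma without trend or with treat, voom, fewer groups and leaving out each library.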

Additional observations from a re-analysis of the deposited data

Results flagged for a closer look

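The shade response of BCB, a blue copper binding protein, differed between the libraries labelled wox4 and rev-5 by 1.83 on the log2 scale in a test of the difference itself (limma adjusted p = 0.00722). It had 18.0 and 15.4 TPM in wox4 WL+FR against 5.31 and 5.67 TPM in wox4 WL, and the WL mean was 5.49 TPM in the libraries labelled wox4 against 11.5 TPM in rev-5 and 11.5 TPM in Col-0. The call was lost in 11 of 12 fits that left out 1 library, and with FPKM, quantile normalization, limma without trend and treat.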

How the results depend on the processing

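The count of 260 genes that rose and 58 that fell kept within 1.5 times under most settings, with exceptions. Quantile normalization gave 158 genes higher, limma treat 32 lower, and an adjusted p under 0.05 without a fold change 3965 genes, 3247 higher and 718 lower. Leaving out 1 library labelled wox4 gave 269 to 300 genes, and 133 of the 318 calls were lost in at least 1 such fit. voom gave 290 higher and 71 lower and kept 304 of the 318. For the difference from Col-0 (0 genes), no filter gave 17 (13 higher, 4 lower), keeping genes listed at 0 gave 13 (10 higher, 3 lower), voom 1 lower and an adjusted p under 0.05 alone 7 lower, and leaving out a library gave 0 to 1, the 1 being AT2G45315 without replicate 8. The 7 were AT1G29920, LHCB2.1, LHCB2.4, JAL10, FER1, RTFL6 and AT2G45315. The light-harvesting genes AT1G29920, LHCB2.1 and LHCB2.4 had responses of -0.01, 0.08 and -0.02, against 0.29, 0.41 and 0.37 in Col-0. In rev-5 the same genes had -0.15, 0.03 and -0.01. FER1 had -0.85 in the libraries labelled wox4, -0.23 in Col-0 and -0.92 in rev-5. For the difference from rev-5 (1 gene), no filter gave 20 (11 higher, 9 lower), keeping genes listed at 0 gave 14 (7 higher, 7 lower), voom 3 (2 higher, 1 lower) and an adjusted p under 0.05 alone 15 (12 higher, 3 lower). FPKM, quantile normalization, limma without trend and treat gave 0. Leaving out a library gave 0 to 10 genes, 0 to 1 higher and 0 to 9 lower, the 10 without replicate 12. The cause of these shifts was not tested.

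Some named genes that passed no threshold changed sign. Under quantile normalization PHV -0.0917, ATHB15 -0.0421, PIF1 -0.0141, COP1 -0.0035, CRY1 -0.0616, PHYD -0.0823, PHYE -0.1221, ANT -0.11, PHYC -0.1039 and REV -0.0498. PHYE had -0.016 with FPKM and -0.0074 with voom. Leaving out single libraries gave PHV -0.0701 to 0.1872, PAR1 -0.1471 to 0.0594, HAT3 -0.2976 to 0.0345, CYP82C2 -0.1144 to 0.0321, ANT -0.0127 to 0.1179 and PHYC -0.0887 to 0.2148. Of 1662 alternative values of 120 named genes, 1591 kept direction and call. No value under quantile normalization is given for CAB1, the most abundant gene of every library. No paired analysis was possible because each of the numbers 1 to 12 belongs to a single library.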

Other observations

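Tests left out 1230 genes that averaged 0.5 TPM or more but were listed at 0 in some library, and an exact 0 in these tables can be a failed estimate. With them kept, 26 such genes passed both thresholds, 15 higher and 11 lower. PAP17, an acid phosphatase, was listed at 0 in both wox4 WL+FR libraries against 26.8 and 24.8 TPM in wox4 WL, and in Col-0 at 0 in both WL+FR libraries against 30.6 and 29.6 TPM in WL. LPR1 had 4.88 and 6.43 TPM in wox4 WL+FR and was listed at 0 in both wox4 WL libraries.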
